A study of Homo sapiens with 10 samples.

Results

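Long non-coding RNAs and antisense transcripts were followed across BCC subsets that differ in the activity of an Oct4A promoter reporter. The members were the probe sets whose only gene symbol on the array platform started with LINC, LOC or SNHG, ended with -AS1, -AS2, -DT or -IT1, or was CYTOR, MALAT1, NEAT1 or WFDC21P. This rule sorted probe sets by name and by no measured value. It was chosen with earlier results of these data known, so the genes it names singly may have been picked with their values in view. It found 1559 of the 25750 probe sets in the deposited table, which stand for 1313 of the 12083 genes that have a probe set under a symbol of their own. There were 579 probe sets for long intergenic transcripts (LINC), 511 for antisense transcripts (-AS), 299 for loci with provisional names (LOC), 128 for divergent transcripts (-DT), 21 for intronic transcripts (-IT1), 14 for the singly named genes and 7 for hosts of small nucleolar RNAs (SNHG). Probe sets for NEAT1 share their symbol with a microRNA gene on this platform, so the rule left them out. RefSeq lists 1513 of the member probe sets as lncRNA, 24 as transcribed pseudogenes, 8 as pseudogenes, 3 as antisense RNA and 3 as protein coding, and 8 were not matched. The pseudogenes include WFDC21P, and the protein coding genes all have LOC names.

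All samples were MDA-MB-231 cells, a human triple-negative breast cancer line with mesenchymal features, transfected with the plasmid pEGFP1-Oct3/4 and kept under neomycin, so that every subset carries the GFP reporter. The brightest cells were named Oct4hi, the dimmest Oct4low, and the cells between these extremes Oct4med. Oct4hi and Oct4low BCCs had 4 arrays each and Oct4med BCCs had 2, which the labels call biological replicates. The subsets are therefore ranked by reporter fluorescence in 1 transfected line and not by a measured RNA.

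A long non-coding RNA is a transcript with no long open reading frame, often spliced and polyadenylated like a messenger RNA and often kept in the nucleus. An antisense transcript is made from the strand opposite a coding gene, a divergent transcript starts beside a coding gene's promoter and runs away from it, and an intronic transcript lies inside an intron of a host gene. Such RNAs can act on transcription at their own site, hold proteins in nuclear bodies, or carry no known function, and several of the best known were described in tumors.

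Values are RMA-normalized log2 intensities, on which a difference of 1 is a 2-fold change in signal. Across the 13883 probe sets tested below, replicates of a subset correlated at 0.987 to 0.994 and arrays of different subsets at 0.957 to 0.981. Of 10 markers of MDA-MB-231 and other mesenchymal breast cancer cells, 8 were in the table, with a mean level over the list of 8.61 to 8.84 in every array. CAV1 read 12.04 to 12.40 in the subset means, whereas the VIM probe set in the table read 3.75 to 4.04. The mean was 6.42 to 6.79 for 6 of 9 luminal markers, 4.11 to 4.41 for 4 of 6 leukocyte markers, 4.60 to 4.76 for 5 of 6 fibroblast markers and 3.36 to 3.89 for 1 of 4 erythroid markers. Of the luminal markers, GATA3 (-0.76) and MLPH (-0.87) were lower in Oct4hi than in Oct4low BCCs, 3 others were tested and did not pass, and CDH1 read 3.92 to 4.19. Of 6 tested mesenchymal markers, CD44 (-0.35), CAV1 (-0.35), SPARC (-0.40) and ANXA1 (-0.65) were lower and TGFBI (0.41) higher in the same comparison, with a median of -0.35. The part of these markers in the results was not tested. PTPRC, the common leukocyte antigen, stayed at 3.09 to 3.19 in the 3 subset means. Among the manufacturer's control probe sets, the one for the 5′ end of 28S ribosomal RNA read 13.60 in Oct4low, 13.57 in Oct4hi and 12.70 in Oct4med BCCs. The part of this difference in the results for Oct4med BCCs was not tested.

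Most of the members were dim. Only 502 of 1559 reached the median of their array in at least 2 arrays, the condition for being tested, which is 32.2% of the members beside 53.9% of all probe sets. The tested probe sets stand for 435 genes. All 14 probe sets of the singly named genes were tested, and so were 185 antisense, 150 LINC, 89 LOC, 52 divergent, 9 intronic and 3 SNHG probe sets. Of the 502, 350 reached the median in all 10 arrays, and 19 did so in arrays of only 1 subset and could therefore hardly be tested without differing. The array medians lay between 5.05 and 5.14, and no member left untested had a mean above 5.01.

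**Figure D1:**
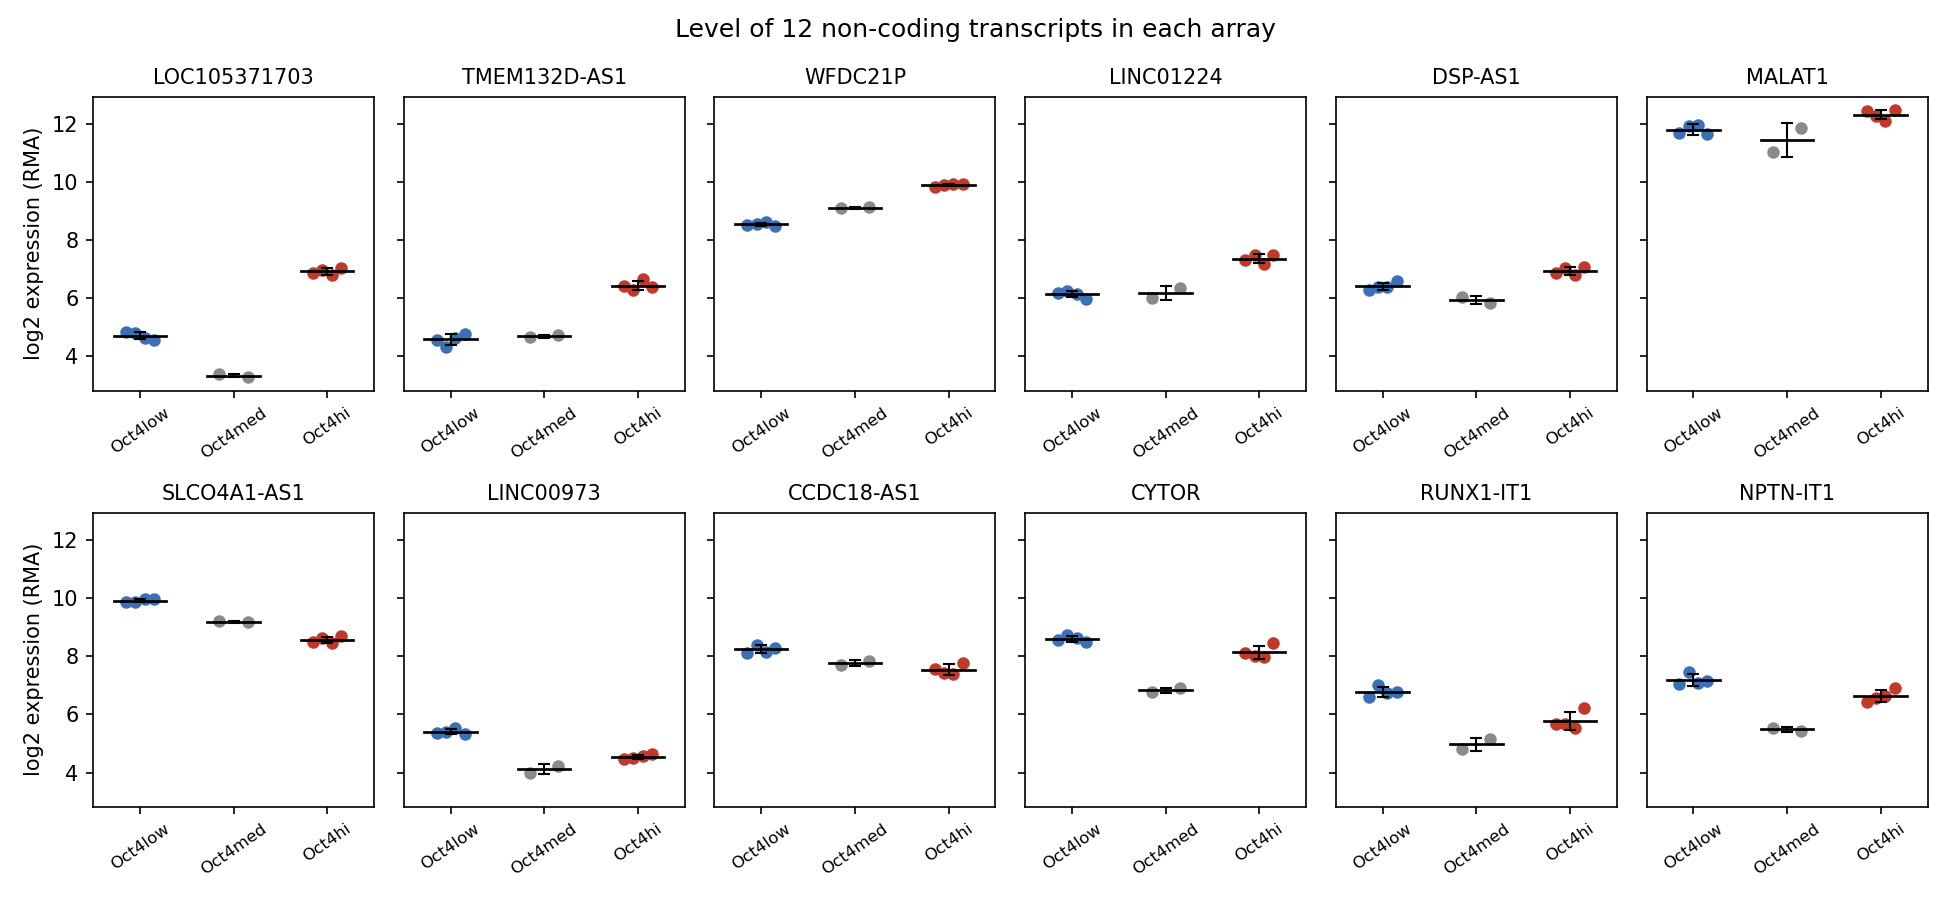
RMA log2 expression (y axis) of 12 of the named members, by subset (x axis), 1 panel for the brightest probe set of each gene. Each point is 1 array, the horizontal line is the subset mean and the error bar is the SD. LOC105371703 had its lowest arrays in Oct4med (3.30 and 3.37) and its highest in Oct4hi BCCs (6.80 to 7.06), whereas WFDC21P and SLCO4A1-AS1 ran in order through the 3 subsets in opposite directions.

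Oct4hi BCCs differed from Oct4low BCCs in 110 of the 502 tested member probe sets, 45 of them higher and 65 lower (limma, adjusted p under 0.05). That is 21.9%, beside 34.8% of all 13883 tested probe sets, so calls were less frequent among the members than in the table as a whole. The share of higher calls was 8.96% among the members and 18.2% among all, and the share of lower calls was 12.9% and 16.7%. The median change of the members was -0.03, beside -0.0045 for all tested probe sets. Calls were less frequent among dim probe sets in general. Below a mean level of 6, 11.9% of 294 member probe sets and 18.8% of all probe sets passed, from 6 to 8 the shares were 32.9% and 38.1%, and above 8 they were 51.4% of 35 and 57.5%. In the other comparisons the members lay above all probe sets at the bright end. For Oct4med against Oct4low BCCs the shares were 10.5% and 14.6% below 6, 20.2% and 22.4% from 6 to 8, and 42.9% and 28.3% above 8. For Oct4hi against Oct4med BCCs they were 11.6% and 13.9%, 23.7% and 28.2%, and 65.7% and 46.8%. Of the 35 bright member probe sets, 6 are those of MALAT1. In bulk RNA of a sorted subset, fewer cells with a transcript and less of it per cell cannot be told apart. By class, 10 of 150 LINC probe sets were higher and 22 lower, 18 and 28 of 185 antisense, 7 and 3 of 52 divergent, 6 and 6 of 89 LOC, and 0 and 4 of 9 intronic. Changes over 2-fold were found for 5 higher member probe sets (0.996%, beside 0.375% of all) and 2 lower ones (0.398%, beside 0.439% of all). Of the 5, LOC105371703 and 2 probe sets of TMEM132D-AS1 reached the array median in Oct4hi arrays alone and passed the filter only there, so nothing is read from that share. The other 2 are those of LINC01224 and WFDC21P. With the arrays shifted to a common median, the split became 58 higher and 55 lower.

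Oct4med BCCs were lower than Oct4low BCCs in 64 member probe sets and higher in 17, together 16.1% of the members beside 20.6% of all. The lower share was 12.7% (15.5% of all) and the higher share 3.39% (5.19% of all). All 7 changes over 2-fold were decreases (1.39%, beside 2.85% of all). Of the 7, LINC00973 reached the array median in Oct4low arrays alone and LOC105371703 in Oct4hi arrays alone, so nothing is read from this share. Oct4hi BCCs were in turn higher than Oct4med BCCs in 65 member probe sets (12.9%, beside 18.1% of all) and lower in 33 (6.57%, beside 8.6% of all), together 19.5% beside 26.7% of all. All 10 changes over 2-fold were increases (1.99%, beside 1.13% of all). Of the 10, 4 are probe sets of MALAT1, whose 12 tested probe sets differed by 0.37 to 0.73 without Oct4med replicate 1, with none called. LOC105371703 and a probe set of TMEM132D-AS1 are also among the 10, so nothing is read from this share either. The 2 comparisons share the Oct4med arrays. Both counts leaned on 1 of them. Without Oct4med replicate 1, 25 members were lower and 2 higher than in Oct4low BCCs, and Oct4hi BCCs were higher than Oct4med BCCs in 17 and lower in 9. Without replicate 2, the counts were 57 and 18, and 72 and 43.

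**Figure D2:**
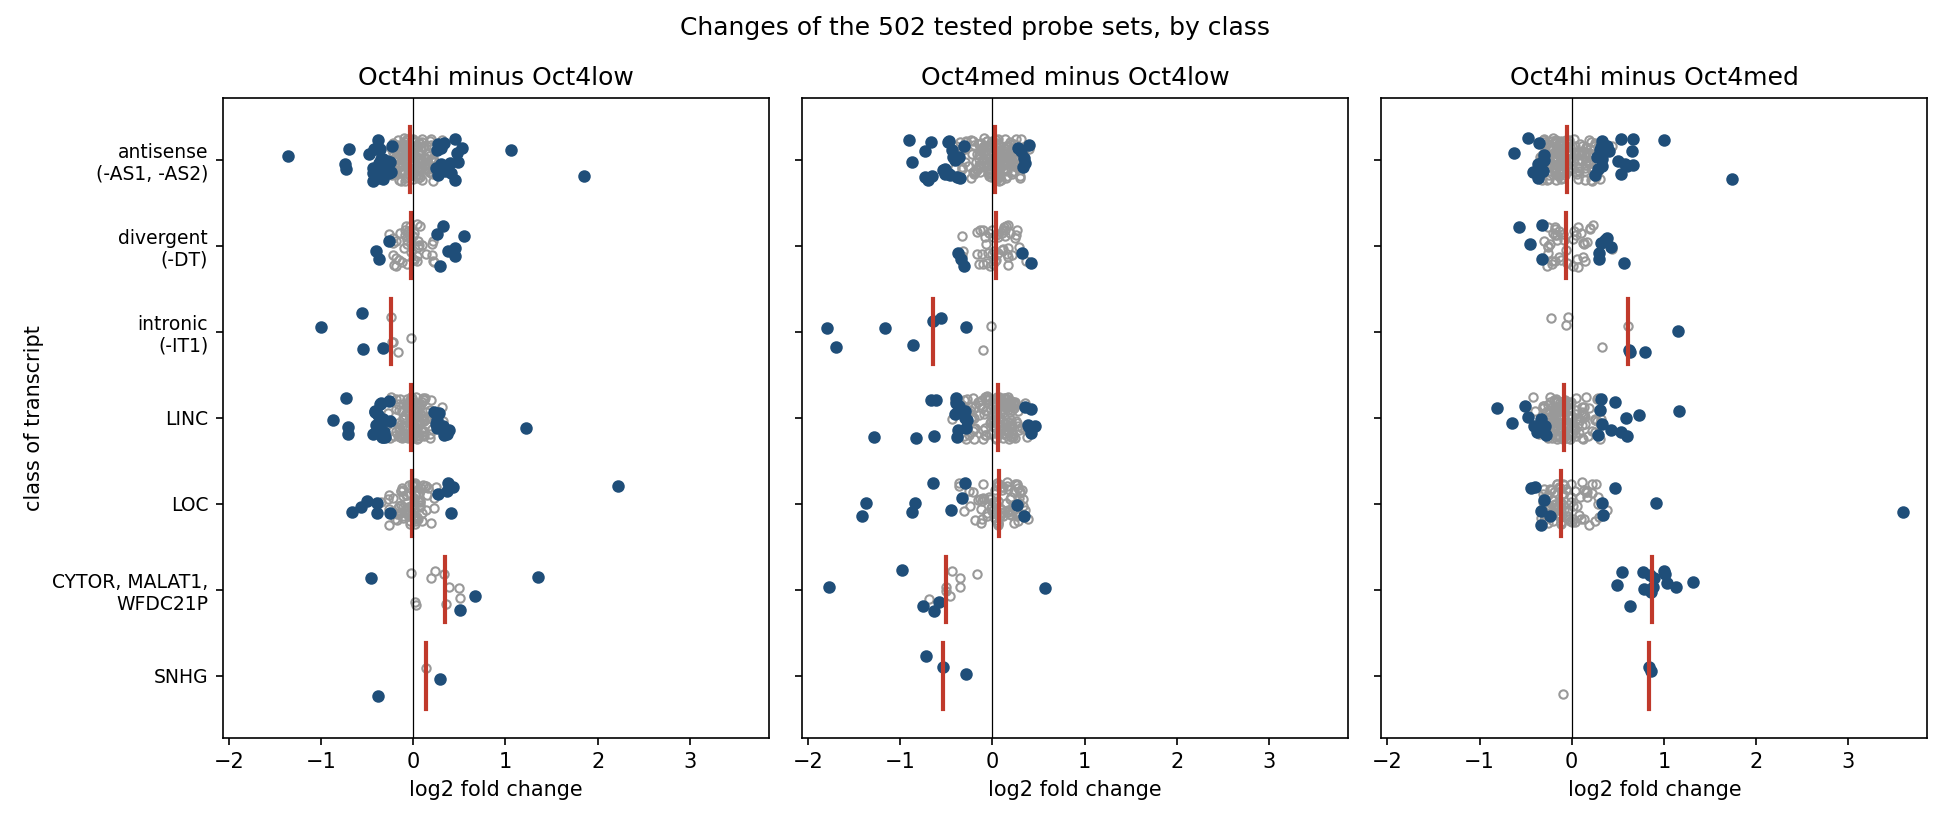
Log2 fold change (x axis) of every tested member probe set by class of transcript (y axis) in each of the 3 comparisons (panels). Filled points passed the test, open points missed it, and a red line marks the median of each class. The intronic transcripts lie below 0 in Oct4med against Oct4low BCCs (median -0.65) and the singly named genes, most of them MALAT1 probe sets, lie above 0 in Oct4hi against Oct4med BCCs (median 0.87).

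The F-test across the 3 subsets called 161 members (32.1%, beside 44.4% of all). Among the 110 members that differed between the extremes, Oct4med BCCs lay between them in 56 (50.9%, beside 53.0% of all). Of the members described here, WFDC21P rose through the 3 subsets and SLCO4A1-AS1 fell, and CYTOR, RUNX1-IT1, NPTN-IT1 and LOC105371703 were lowest in Oct4med BCCs. LINC03040, named after its values were seen, was highest there, at 7.08 against 6.61 in Oct4low and 6.27 in Oct4hi BCCs.

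MALAT1, an abundant nuclear RNA of the speckles where splicing factors gather, had 12 probe sets, all of them tested. The brightest read 11.67, 11.94, 11.97 and 11.64 in the Oct4low arrays, 11.05 and 11.86 in the Oct4med arrays, and 12.43, 12.26, 12.11 and 12.47 in the Oct4hi arrays. Every Oct4hi array was above every other array, and the 2 Oct4med arrays lay far apart. Oct4hi exceeded Oct4low BCCs by 0.51 ± 0.16 (SE, adjusted p = 0.0236) and Oct4med BCCs by 0.86 ± 0.19 (adjusted p = 0.00663). Oct4med differed from Oct4low BCCs by -0.35 ± 0.19 (adjusted p = 0.214). Over the 12 probe sets, which report 1 transcript, Oct4hi BCCs were above Oct4low BCCs in 2 and below in none, with differences of -0.03 to 0.67. All 12 were higher in Oct4hi than in Oct4med BCCs (0.50 to 1.13), which is 12 of the 65 member probe sets higher in that comparison. Counted by gene, 47 members were higher and 31 lower there. Without Oct4med replicate 1, no MALAT1 probe set was called against Oct4med BCCs, although all 12 differences from Oct4hi BCCs stayed positive (0.37 to 0.73). Without replicate 2, Oct4hi BCCs exceeded Oct4med BCCs in 11 and Oct4med BCCs were below Oct4low BCCs in 9. The MALAT1 result for Oct4med BCCs thus rested on replicate 1.

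Proteins of nuclear bodies that hold such RNAs were taken from lists. The values below are those of their transcripts, and protein was not measured. Of 12 listed nuclear speckle proteins, 9 were tested. In Oct4med against Oct4low BCCs, the splicing factors SRSF1 (-0.64, adjusted p = 0.00832), SRSF5 (-0.34) and SRSF6 (-0.33) were lower and SRSF7 was higher (0.28), with a list median of -0.33. In Oct4hi against Oct4low BCCs 1 was higher and 3 were lower (median -0.04), and against Oct4med BCCs 3 were higher and none lower (median 0.25). Of 9 paraspeckle proteins, which bind the RNA NEAT1, 6 were tested. SFPQ fell by 0.96 in Oct4med against Oct4low BCCs (adjusted p = 0.000205) and HNRNPH3 by 0.33. NONO was 0.44 higher in Oct4hi than in Oct4low BCCs, where SFPQ (-0.31) and PSPC1 (-0.32) were lower. For comparison, the medians of all tested probe sets were 0.01 for Oct4med against Oct4low BCCs and 0.02 for Oct4hi against Oct4med BCCs. The shares called among all of them, rising and falling, were 18.2% and 16.7% for Oct4hi against Oct4low BCCs. These shares were 5.19% and 15.5% for Oct4med against Oct4low, and 18.1% and 8.6% for Oct4hi against Oct4med BCCs. With the transcripts of only 9 and 6 such proteins tested, nothing particular to these lists is read from the counts of calls.

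**Figure D3:**
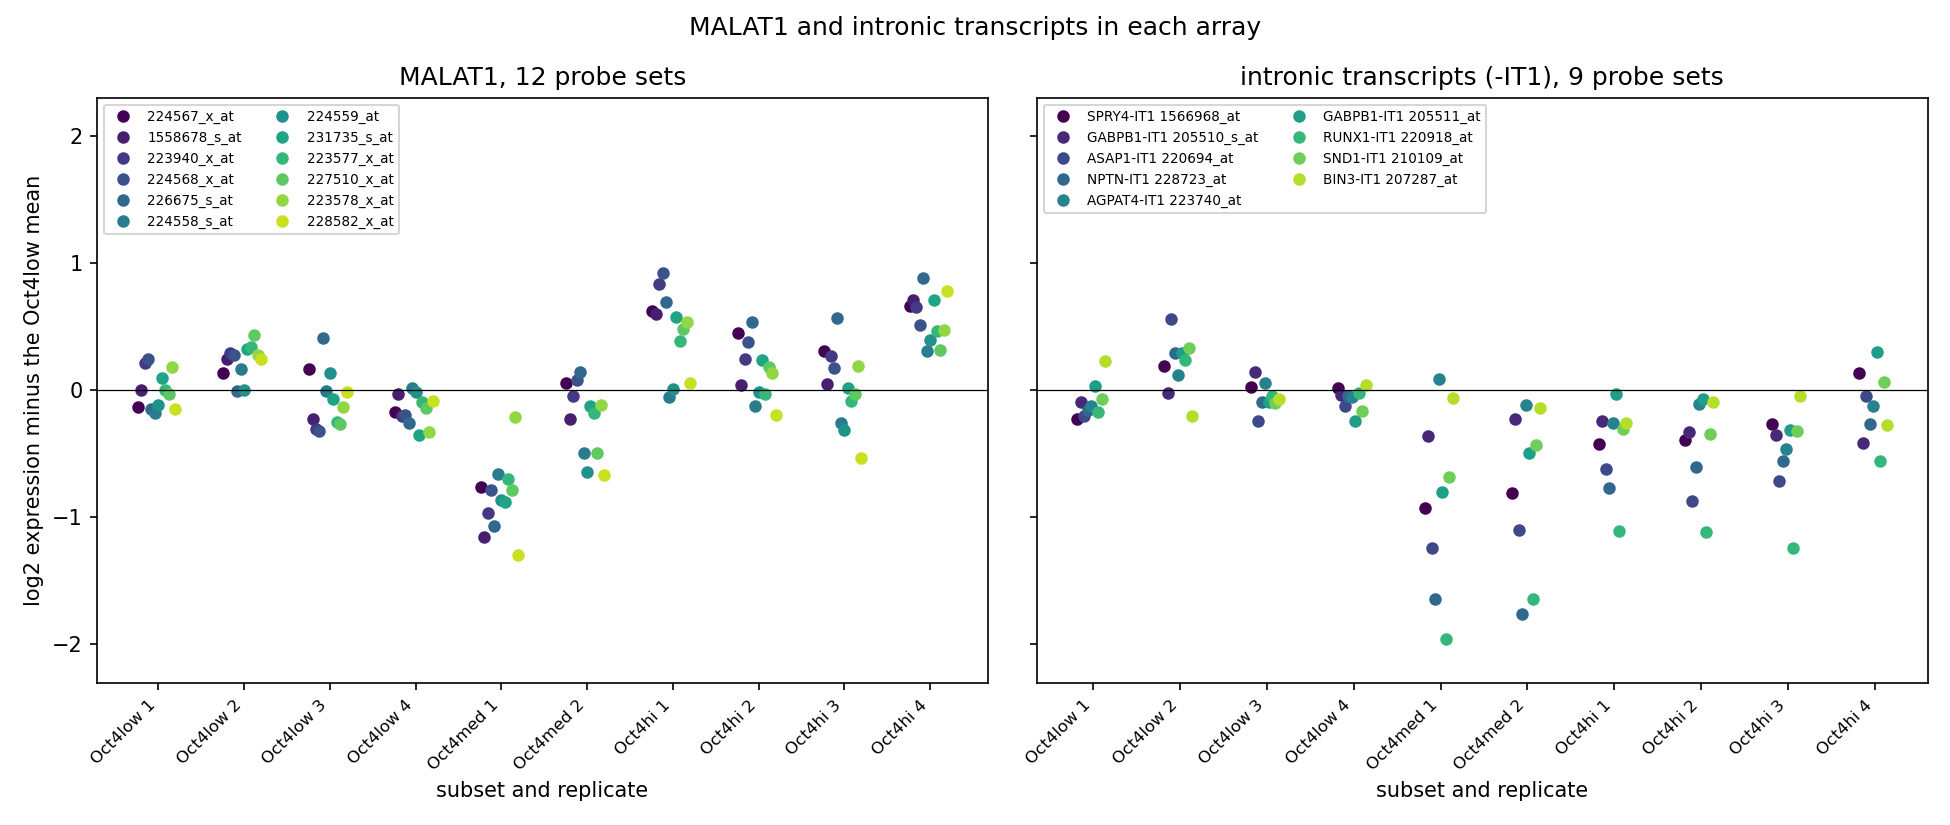
Log2 expression minus the Oct4low mean (y axis) of the 12 MALAT1 probe sets (left) and the 9 tested intronic probe sets (right) in each of the 10 arrays (x axis), 1 color a probe set. The MALAT1 points of Oct4med replicate 1 lie below 0 and those of replicate 2 around or below it, while NPTN-IT1 and RUNX1-IT1 are low in both Oct4med arrays.

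CYTOR, a cytoplasmic lncRNA linked to the growth of several tumors, showed the lowest level in Oct4med BCCs in both replicates. It read 8.56, 8.72, 8.62 and 8.50 in the Oct4low arrays, 6.76 and 6.90 in the Oct4med arrays, and 8.11, 8.01, 7.99 and 8.46 in the Oct4hi arrays. The 3 subsets did not overlap. The difference between Oct4med and Oct4low BCCs was -1.77 ± 0.13 (SE, adjusted p = 3.09e-06). It was 1.31 ± 0.13 between Oct4hi and Oct4med BCCs (adjusted p = 2.7e-05) and -0.46 ± 0.10 between Oct4hi and Oct4low BCCs (adjusted p = 0.00502). With only 1 Oct4med array, the difference from Oct4low BCCs was -1.70 or -1.84.

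LINC-PINT, a lncRNA known as a p53 target, was lower in both subsets with more reporter signal. It read 7.93, 8.24, 8.26 and 7.98 in the Oct4low arrays, 7.50 and 7.46 in the Oct4med arrays, and 7.37, 7.38, 7.31 and 7.53 in the Oct4hi arrays. All Oct4low arrays were above all others. The differences from Oct4low BCCs were -0.70 ± 0.09 in Oct4hi (adjusted p = 0.000161) and -0.62 ± 0.11 in Oct4med BCCs (adjusted p = 0.00227), and Oct4hi and Oct4med BCCs differed by -0.09 ± 0.11 (adjusted p = 0.582).

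The promoters of CYTOR and LINC-PINT, 2 of the members described in detail here, are shown because each holds the letters TGANTCA, the site bound by AP-1 (FOS and JUN), more than once. Both sequences are RefSeq's, build GRCh38.p14, from 250 bases before the transcript start to 50 bases after it, read 5′ to 3′ along the gene, with the motif in capitals. CYTOR lies on the plus strand at chr2:87455177-87455476 and LINC-PINT on the minus strand at chr7:130913261-130913560.
CYTOR: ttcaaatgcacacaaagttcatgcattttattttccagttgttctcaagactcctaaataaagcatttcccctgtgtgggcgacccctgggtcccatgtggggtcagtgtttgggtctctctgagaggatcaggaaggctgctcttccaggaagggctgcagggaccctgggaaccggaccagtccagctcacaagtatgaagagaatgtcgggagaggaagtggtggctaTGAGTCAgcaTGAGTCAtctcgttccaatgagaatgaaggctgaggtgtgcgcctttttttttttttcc
LINC-PINT: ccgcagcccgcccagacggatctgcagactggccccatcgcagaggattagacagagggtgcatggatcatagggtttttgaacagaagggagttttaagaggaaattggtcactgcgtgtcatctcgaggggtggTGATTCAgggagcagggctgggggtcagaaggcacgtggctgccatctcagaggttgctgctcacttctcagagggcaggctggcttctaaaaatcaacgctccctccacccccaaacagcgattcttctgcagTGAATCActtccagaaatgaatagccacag
Counted from the transcript start, the first bases of the 2 copies stand at -19 and -9 in CYTOR and at -114 and 21 in LINC-PINT. The promoter of LINC01271, which was 0.36 higher in Oct4med against Oct4low BCCs (adjusted p = 0.0317), also held 2 copies, at -174 and -74. Of 27305 promoters of this length, 7.76% held the motif on either strand and 0.505% held 2 or more copies. It was found in 34 of the 317 tested members with a promoter in the table (10.7%), in 10 of 37 members that were lower in Oct4med BCCs and in 7 of 38 that were lower in Oct4hi BCCs, both against Oct4low BCCs (27.0% and 18.4%). Among the members called higher it was found in 1 of 9 for Oct4med against Oct4low (11.1%), 4 of 31 for Oct4hi against Oct4low (12.9%) and 6 of 33 for Oct4hi against Oct4med BCCs (18.2%). It was in 3 of the 21 called lower in that last comparison (14.3%). The first 7 letters of the octamer, ATGCAAA, were found in 5 of the 317 (1.58%, beside 4.51% of all promoters). ACGTG, the core of the hypoxia response element, was found in 80 (25.2%, beside 21.6%). It was in 13 of the 37 lower in Oct4med and 12 of the 38 lower in Oct4hi BCCs (35.1% and 31.6%). Among members called higher in the same comparisons it was in 1 of 9 and 9 of 31 (11.1% and 29.0%). Nothing particular to the AP-1 letters is read from these shares. These are matches of letters in a window and not sites shown to be bound.

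WFDC21P, a transcript described in dendritic cells and listed as a transcribed pseudogene, rose in steps from Oct4low to Oct4hi BCCs with little spread. It read 8.51, 8.55, 8.61 and 8.49 in the Oct4low arrays, 9.10 and 9.13 in the Oct4med arrays, and 9.84, 9.89, 9.94 and 9.92 in the Oct4hi arrays. No array overlapped with another subset. The differences were 1.36 ± 0.06 between Oct4hi and Oct4low (SE, adjusted p = 5.18e-08), 0.57 ± 0.08 between Oct4med and Oct4low (adjusted p = 0.000392) and 0.78 ± 0.08 between Oct4hi and Oct4med BCCs (adjusted p = 3.92e-05). Of the members raised in Oct4med over Oct4low BCCs, it had the largest increase. The other 9 named for an increase there, such as LINC00452, ZNF582-DT and LINC00165, rose by 0.34 to 0.42. LINC00165, LINC01607 and RHOQ-AS1 among them reached the array median in the 2 Oct4med arrays alone, so they were tested only through the subset where they are high.

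The SNHG genes hold small nucleolar RNAs, guides for the modification of ribosomal RNA, in their introns. Of 7 probe sets, 3 were tested, for SNHG17 and SNHG19. The brighter SNHG17 probe set read 10.55, 10.72, 10.72 and 10.71 in the Oct4low arrays, 9.94 and 9.97 in the Oct4med arrays, and 10.77, 10.76, 10.79 and 10.95 in the Oct4hi arrays. Oct4med BCCs were below Oct4low BCCs (-0.72 ± 0.09, adjusted p = 0.000184) and Oct4hi BCCs above Oct4med BCCs (0.86 ± 0.09, adjusted p = 4.84e-05), while Oct4hi and Oct4low BCCs differed by 0.14 ± 0.07 (adjusted p = 0.158). Its second probe set also had its lowest mean in Oct4med BCCs, at 9.61 against 10.15 in Oct4low and 10.45 in Oct4hi BCCs, and all 3 of its differences passed the test. SNHG19 was 9.44, 9.15 and 9.06 in Oct4low, Oct4med and Oct4hi BCCs, lower in Oct4hi than in Oct4low BCCs by -0.38 ± 0.07 (adjusted p = 0.00109). Of 9 listed proteins of the particles that small nucleolar RNAs form, the transcript of NOLC1 alone was tested. It was higher than in Oct4low BCCs both in Oct4hi (0.61, adjusted p = 0.00269) and in Oct4med BCCs (0.52, adjusted p = 0.03). Oct4hi and Oct4med BCCs differed by 0.09 (adjusted p = 0.68). Nonsense-mediated decay is the pathway that breaks down many of the spliced host transcripts. Of 8 listed proteins of it, the transcripts of 2 were tested. UPF2 was lower in Oct4hi than in Oct4low BCCs (-0.41, adjusted p = 0.00165), and UPF1 did not pass (0.23, adjusted p = 0.107).

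The largest increase of all members belonged to LOC105371703, a lncRNA of chromosome 17 with no assigned function, which read 4.82, 4.80, 4.64 and 4.57 in the Oct4low arrays, 3.37 and 3.30 in the Oct4med arrays, and 6.87, 6.98, 6.80 and 7.06 in the Oct4hi arrays. The subsets lay far apart and in the order Oct4med, Oct4low, Oct4hi. Oct4hi exceeded Oct4low BCCs by 2.22 ± 0.08 (SE, adjusted p = 8.13e-09) and Oct4med BCCs by 3.59 ± 0.10 (adjusted p = 1.67e-09), and Oct4med was below Oct4low BCCs by -1.37 ± 0.10 (adjusted p = 4.55e-06). It reached the array median in the 4 Oct4hi arrays alone, so it was tested only through the subset where it is high. Its differences are therefore given as a description, and the levels of the other subsets lie in the dim range of the array. The nearest start of a coding gene, WSB1, is 204873 bases away.

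Its promoter, from RefSeq build GRCh38.p14 on the minus strand at chr17:27089192-27089491, is shown because it repeats CCAAT boxes. The window is again 250 bases before to 50 after the start, read along the gene, and the capitals mark CCAAT or its reverse complement ATTGG. The motif was added after the sequence had been seen.
LOC105371703: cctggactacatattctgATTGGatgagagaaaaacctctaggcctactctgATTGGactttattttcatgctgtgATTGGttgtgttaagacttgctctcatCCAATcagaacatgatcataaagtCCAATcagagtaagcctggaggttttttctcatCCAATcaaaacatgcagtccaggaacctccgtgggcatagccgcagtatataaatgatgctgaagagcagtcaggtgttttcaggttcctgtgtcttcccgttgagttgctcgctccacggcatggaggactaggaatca
There are 6 copies, whose first bases stand at -232 to -90 from the start. At least 1 copy was found in 35.7% of the 27305 promoters and in 35.3% of those of tested members, and 6 or more in 0.136% of all promoters.

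Among the LINC transcripts, LINC01224 was the one most increased in Oct4hi BCCs. It read 6.18, 6.24, 6.15 and 5.99 in the Oct4low arrays, 6.02 and 6.36 in the Oct4med arrays, and 7.30, 7.47, 7.16 and 7.50 in the Oct4hi arrays, so that Oct4hi stood apart from 2 overlapping subsets. The difference was 1.22 ± 0.10 from Oct4low (SE, adjusted p = 5.19e-06) and 1.17 ± 0.12 from Oct4med BCCs (adjusted p = 5.72e-05), and Oct4med differed from Oct4low BCCs by 0.05 ± 0.12 (adjusted p = 0.795). LINC00973 went the other way, with 5.38, 5.38, 5.54 and 5.33 in the Oct4low, 3.99 and 4.24 in the Oct4med, and 4.46, 4.50, 4.57 and 4.63 in the Oct4hi arrays. It differed from Oct4low BCCs by -0.87 ± 0.08 in Oct4hi (adjusted p = 1.38e-05) and by -1.29 ± 0.10 in Oct4med BCCs (adjusted p = 5.7e-06). These differences are given as a description, since LINC00973 reached the array median in Oct4low arrays alone, the subset where it is high. LINC00470 fell by 0.73 in Oct4hi against Oct4low BCCs (adjusted p = 0.000461) and by 0.65 against Oct4med BCCs. Its second probe set, also tested, lay between 5.09 and 5.90 with the 3 subsets overlapping.

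SLCO4A1-AS1, antisense to the gene of an organic anion transporter, had the largest decrease from Oct4low to Oct4hi BCCs. It read 9.87, 9.87, 9.97 and 9.96 in the Oct4low arrays, 9.21 and 9.17 in the Oct4med arrays, and 8.48, 8.62, 8.46 and 8.69 in the Oct4hi arrays. The subsets did not overlap. The differences were -1.36 ± 0.07 between Oct4hi and Oct4low (SE, adjusted p = 1.45e-07), -0.73 ± 0.09 between Oct4med and Oct4low (adjusted p = 0.000175) and -0.63 ± 0.09 between Oct4hi and Oct4med BCCs (adjusted p = 0.000508). SLCO4A1 itself followed, at 8.18 ± 0.04 (SD, n = 4), 7.58 ± 0.05 (n = 2) and 7.11 ± 0.06 (n = 4), which is -1.07 between Oct4hi and Oct4low BCCs (adjusted p = 4.03e-07).

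TMEM132D-AS1 read 4.57, 4.33, 4.64 and 4.78 in the Oct4low arrays, 4.66 and 4.73 in the Oct4med arrays, and 6.41, 6.27, 6.66 and 6.40 in the Oct4hi arrays. It was raised in Oct4hi BCCs alone, by 1.85 ± 0.11 over Oct4low (adjusted p = 1.98e-07) and by 1.74 ± 0.13 over Oct4med BCCs (adjusted p = 2.81e-06), and its second probe set rose by 1.06 over Oct4low BCCs. Both probe sets reached the array median in Oct4hi arrays alone, so they were tested only through the subset where they are high. Their differences are given as a description. DSP-AS1, antisense to the gene of the desmosome protein desmoplakin, read 6.30, 6.37, 6.40 and 6.59 in the Oct4low arrays, 6.04 and 5.84 in the Oct4med arrays, and 6.88, 7.05, 6.78 and 7.07 in the Oct4hi arrays. It was 0.53 ± 0.09 higher in Oct4hi than in Oct4low (adjusted p = 0.00115) and 1.005 ± 0.11 higher than in Oct4med BCCs (adjusted p = 9.05e-05). DSP was 0.45 higher in Oct4hi than in Oct4low BCCs (adjusted p = 0.000442) and 0.37 higher than in Oct4med BCCs (adjusted p = 0.00651). In Oct4med against Oct4low BCCs DSP-AS1 was lower (-0.47, adjusted p = 0.0123), whereas DSP did not pass (0.07, adjusted p = 0.553). Smaller increases in Oct4hi against Oct4low BCCs were those of EP300-AS1 (0.48), PAXIP1-AS2 (0.47), ATP2A1-AS1 (0.46) and the divergent transcript SLC12A2-DT (0.55). EP300 (-0.13, adjusted p = 0.45) and SLC12A2 (0.23, adjusted p = 0.11) did not pass in that comparison, and PAXIP1 and ATP2A1 were not tested.

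CCDC18-AS1 went against the gene it is named for. Its brighter probe set read 8.10, 8.41, 8.15 and 8.30 in the Oct4low arrays, 7.71 and 7.85 in the Oct4med arrays, and 7.57, 7.43, 7.38 and 7.78 in the Oct4hi arrays. It differed from Oct4low BCCs by -0.70 ± 0.10 in Oct4hi (SE, adjusted p = 0.000362) and by -0.46 ± 0.12 in Oct4med BCCs (adjusted p = 0.0218). The brightest CCDC18 probe set, for a centriole protein, was 0.75 higher in Oct4hi than in Oct4low BCCs (adjusted p = 0.00189). The second probe set of CCDC18-AS1 lay between 6.26 and 6.78 with overlapping subsets. By the annotation, CCDC18-AS1 starts 96 bases from DR1, a repressor of transcription, and runs away from it. DR1 was 0.34 higher in Oct4hi than in Oct4low BCCs (adjusted p = 0.00757).

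Pairs of a non-coding transcript and the gene it is named for were counted over 219 tested antisense, divergent and intronic genes. The gene was in the table for 130 and tested for 105, each side by its brightest probe set. In Oct4hi against Oct4low BCCs, 21 of these 105 transcripts and 46 of the genes were called, beside 34.8% of all tested probe sets. Both were called in 11 pairs. Of the 11, 5 pairs were higher together (DSP, LOXL1, OIP5, SERTAD4 and TMPO), 2 lower together (SLCO4A1 and NR2F1) and 4 opposed, each with the transcript lower and the gene higher (CCDC18, GABPB1, SCAMP1 and TAF1A). In Oct4med against Oct4low BCCs, 17 of the 105 transcripts and 23 of the genes were called, beside 20.6% of all tested probe sets. Both were called in 7 pairs, 4 of them lower together (ASAP1, GOLGA4, NR2F1 and SLCO4A1) and 3 opposed (CCDC18, CRIM1 and TSC22D1). In Oct4hi against Oct4med BCCs, 21 of the transcripts and 31 of the genes were called, beside 26.7% of all tested probe sets. Both were called in 8 pairs, all alike in direction, 6 higher (DSP, EIF3J, FOXN3, LOXL1, MAP3K9 and OIP5) and 2 lower (SLCO4A1 and TOX). Calls among all tested probe sets leaned to higher there, 18.1% beside 8.6% lower, so nothing is read from this agreement. Pairs outside the rule for named genes were listed after their values were seen.

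**Figure D4:**
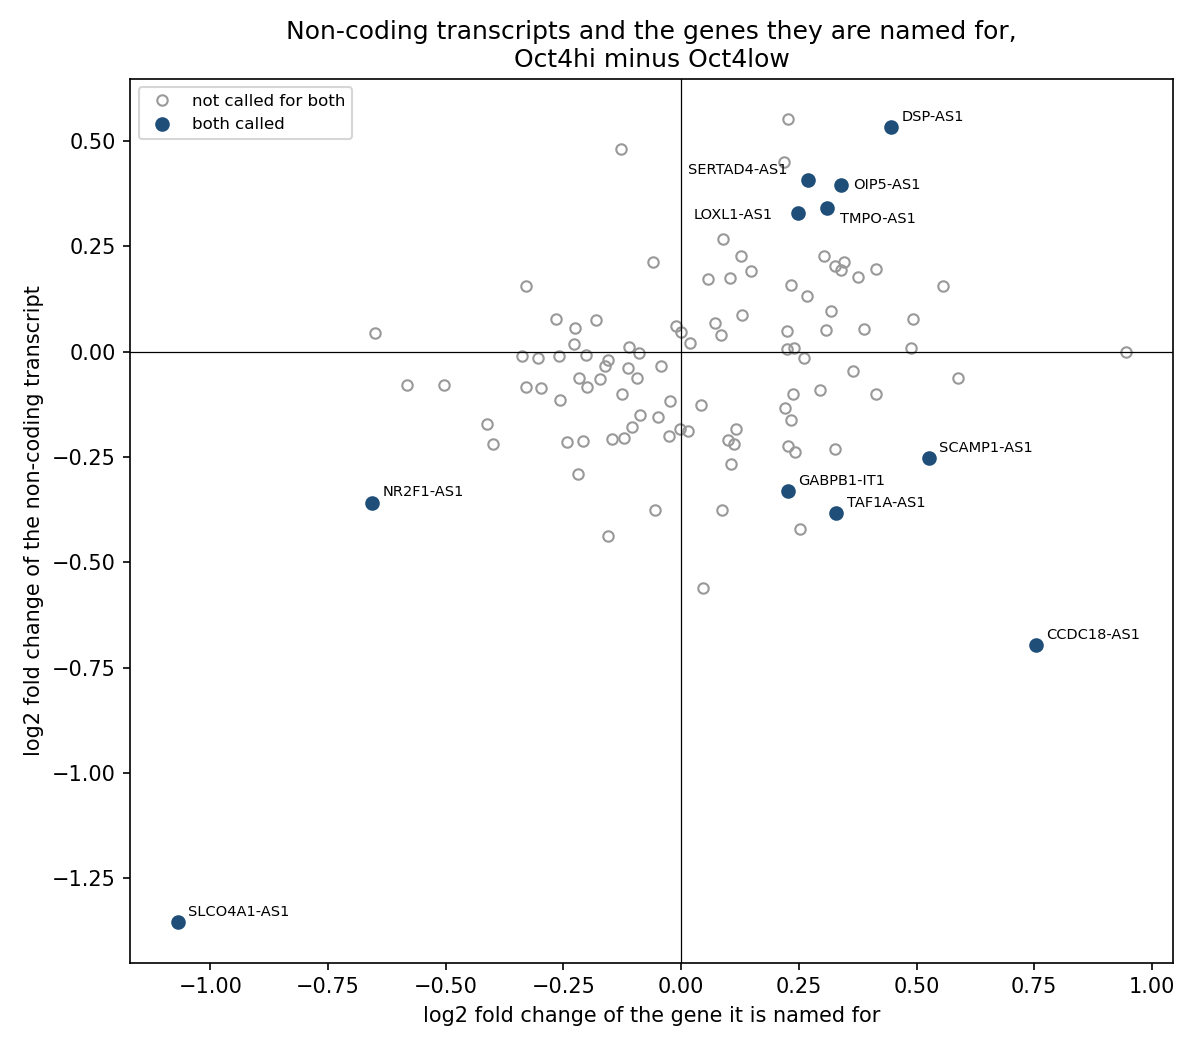
Log2 fold change between Oct4hi and Oct4low BCCs of 105 antisense, divergent and intronic transcripts (y axis) against that of the gene each is named for (x axis), 1 point a pair. Filled points mark the 11 pairs in which both passed the test. SLCO4A1-AS1 lies at the lower left with its gene, and CCDC18-AS1 at the lower right, opposite to its gene.

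Of 318 tested members with a transcript start in the annotation, 75 (23.6%) started within 1000 bases of a coding gene's start and ran away from it. In Oct4hi against Oct4low BCCs 14 of these 75 were called (18.7%), and 55 of the other 243 (22.6%), beside 34.8% of all tested probe sets. In Oct4med against Oct4low BCCs the counts were 17 (22.7%) and 30 (12.3%), beside 20.6% of all, and in Oct4hi against Oct4med BCCs 15 of the 75 and 40 of the 243, beside 26.7% of all. LOC105377276 starts 196 bases from the start of EREG, the gene of the growth factor epiregulin, and runs towards that start. The promoter window of LOC105377276 overlaps EREG. It read 5.19, 4.68, 5.01 and 5.23 in the Oct4low arrays, 4.08 and 4.28 in the Oct4med arrays, and 4.65, 4.11, 4.50 and 4.19 in the Oct4hi arrays. It reached the array median in Oct4low replicates 1 and 4 alone, so it was tested only through the subset where it is high, and its differences are given as a description. It differed from Oct4low BCCs by -0.66 in Oct4hi (adjusted p = 0.00375) and -0.85 in Oct4med BCCs (adjusted p = 0.0051). The brightest EREG probe set fell by 1.53 in Oct4hi (adjusted p = 4e-06) and fell by 1.54 in Oct4med BCCs (adjusted p = 3.73e-05), while a dimmer EREG probe set did not pass.

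The intronic transcripts were low in Oct4med BCCs. All 9 tested probe sets had a lower mean there than in Oct4low BCCs, and 7 of them were called lower, with a median of -0.65, beside 15.5% lower among all tested probe sets. NPTN-IT1, from the gene of the adhesion protein neuroplastin, read 7.03, 7.48, 7.09 and 7.14 in the Oct4low arrays, 5.55 and 5.43 in the Oct4med arrays, and 6.42, 6.58, 6.63 and 6.92 in the Oct4hi arrays. Its difference from Oct4low BCCs was -1.70 ± 0.14 in Oct4med (SE, adjusted p = 1.32e-05) and -0.55 ± 0.12 in Oct4hi BCCs (adjusted p = 0.00388). RUNX1-IT1, from the gene of a transcription factor of blood and epithelial cells, read 6.61, 7.02, 6.74 and 6.76 in the Oct4low arrays, 4.82 and 5.14 in the Oct4med arrays, and 5.67, 5.66, 5.54 and 6.22 in the Oct4hi arrays. The subsets did not overlap for either transcript. RUNX1-IT1 differed from Oct4low BCCs by -1.80 ± 0.17 in Oct4med (adjusted p = 3.52e-05) and by -1.01 ± 0.14 in Oct4hi BCCs (adjusted p = 0.000307). ASAP1-IT1 (-1.17) and SPRY4-IT1 (-0.87) were also lower in Oct4med than in Oct4low BCCs.

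NPTN-IT1 and RUNX1-IT1 lie inside their host genes on the same strand, so the arrays cannot tell them apart from unspliced RNA of the host. Of 2461 tested probe sets with no gene name here, 29.2% were lower in Oct4med BCCs in the same comparison. Without Oct4med replicate 1, 3 of the 9 intronic probe sets were called lower, and without replicate 2, 6 were.

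Other falls in Oct4med against Oct4low BCCs were those of LOC114224 (-1.41 ± 0.19, adjusted p = 0.000363), PCBP1-AS1 (-0.90 ± 0.12, adjusted p = 0.000338) and LOC100190986 (-0.87 ± 0.16, adjusted p = 0.00223). LOC114224 read 6.84, 7.13, 7.08 and 7.01 in the Oct4low arrays, 5.24 and 5.97 in the Oct4med arrays, and 6.41, 6.32, 6.41 and 6.91 in the Oct4hi arrays. Its increase in Oct4hi over Oct4med BCCs was 0.91 (adjusted p = 0.00531) and 0.55 without Oct4med replicate 1 (adjusted p = 0.103). The other members named for a decrease in Oct4hi against Oct4med BCCs, beside LINC00470 and SLCO4A1-AS1, changed less, from -0.41 for LINC00324 to -0.57 for TOX-DT. LINC00324 and LINC00165 reached the array median in the 2 Oct4med arrays alone, so they were tested only through the subset where they are high.

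Non-coding genes whose names fall outside the rule were taken from a list of 40, of which 26 were in the table and 19 tested. In Oct4hi against Oct4low BCCs 4 were higher and 4 lower (median -0.04), beside 18.2% higher and 16.7% lower among all tested probe sets. In Oct4med against Oct4low BCCs none were higher and 3 lower (median -0.09), beside 5.19% and 15.5% of all. In Oct4hi against Oct4med BCCs 3 were higher and 3 lower (median 0.15), beside 18.1% and 8.6% of all. Nothing particular to this list is read from these small counts. FTX, a host gene of microRNAs, was lower in Oct4hi (-1.01, adjusted p = 0.00102) and in Oct4med (-1.46, adjusted p = 0.000519) than in Oct4low BCCs. MIR100HG, the host gene of miR-100, was lower in Oct4hi than in Oct4low (-0.68, adjusted p = 5.09e-05) and than in Oct4med BCCs (-0.73, adjusted p = 0.000195). UCA1, a lncRNA first described in bladder cancer, was 0.82 higher in Oct4hi than in Oct4low (adjusted p = 0.000702) and 0.91 higher than in Oct4med BCCs (adjusted p = 0.0019), and it reached the array median in the 4 Oct4hi arrays alone, the subset where it is high.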

How the data were processed

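Total RNA of 10 sorted samples was hybridized to Affymetrix U133 Plus 2.0 arrays. The deposited values are log2 intensities that the authors corrected for background, RMA normalized (the tool named in the submitters' notes) and filtered for features near background or with little change. No sample column was left out, but 23 control probe sets were. Members were found through the platform annotation, and biotypes, neighbours and promoters through RefSeq (GRCh38.p14). The members and lists were chosen with earlier results of these data known.

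A mean for each subset was fitted with limma 3.58.1 in R 4.3.3 to the 13883 probe sets that reached the median of an array in 2 or more arrays. P-values are two-sided, from limma's moderated tests, and adjusted by Benjamini-Hochberg over these probe sets, with a threshold of 0.05. The fit was tested on simulated data. Named members are the singly named genes, the SNHG genes and, by brightest probe set, the 10 largest rises and falls of each comparison among calls without overlapping arrays, with the genes they are named for, and up to 3 changed members of each list. Alternatives were other filters, scalings, weights, priors, samples and tests. Precision is limited by the number of arrays, above all by the 2 of Oct4med BCCs.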

Additional observations from a re-analysis of the deposited data

Results flagged for a closer look

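Among the 42 named members, 84 groups of 4 arrays were examined for an array that stood apart from the rest of its subset, and 4 were found, where chance gives about 1 in 20 groups. ASAP1-IT1 read 7.72 in Oct4low replicate 2, above 6.92 to 7.04 in the other Oct4low arrays. LOC114224 read 6.91 in Oct4hi replicate 4, above 6.32 to 6.41 in the others. SNHG17 read 10.55 in Oct4low replicate 1, below 10.71 to 10.72 in the others, and 10.95 in Oct4hi replicate 4, above 10.76 to 10.79 in the others.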

How the results depend on the processing

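The counts of members higher (45) and lower (65) in Oct4hi than in Oct4low BCCs stayed within 1.5 times under every alternative run, at 32 to 58 and 46 to 78. The small counts moved most. Members higher in Oct4med than in Oct4low BCCs (17) numbered 4 with the stricter filter, 10 with the variation filter, 28 when quantile normalized again, 6 with array quality weights, 9 with an intensity trend and robust prior, 10 in a fit of only the subsets compared and 4 by the methods' t-test, while the members lower in Oct4hi against Oct4med BCCs (33) numbered 15, 16, 20 (common median), 17, 21 (subsets compared) and 7 (t-test). The t-test also gave 21 members lower in Oct4med than in Oct4low and 28 higher in Oct4hi than in Oct4med BCCs, and the stricter filter left 102 members in the F-test. At the threshold of the methods, an unadjusted p under 0.001, this plain t-test called 18 members higher and 17 lower in Oct4hi than in Oct4low BCCs. It called 4 and 8 in Oct4med against Oct4low, and 7 and 2 in Oct4hi against Oct4med BCCs.

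Leaving out 1 array gave 36 to 51 members higher and 54 to 72 lower in Oct4hi than in Oct4low, 2 to 18 and 25 to 64 in Oct4med against Oct4low, 17 to 72 and 9 to 44 in Oct4hi against Oct4med BCCs, and 112 to 186 in the F-test. Besides Oct4med replicate 1, Oct4low replicates 2 (10) and 3 (9) moved the members higher in Oct4med than in Oct4low BCCs, and Oct4hi replicate 4 (20) those lower in Oct4hi than in Oct4med BCCs. A lone Oct4med array is assumed to vary like the other subsets. The paper isolated the RNA in separate experiments, and the labels do not say whether equal replicate numbers mark the same one. Deviations from the subset means correlated at -0.26 to 0.28 over 8 pairs of equal number. Over 24 pairs of different number the range was -0.51 to 0.51. The deviations of the Oct4med arrays mirror each other, so these values cannot decide whether the samples were paired. With the replicate number as a block, 5 members rose and 38 fell in Oct4med against Oct4low BCCs, and 9 fell in Oct4hi against Oct4med BCCs.

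Of the changes of named members, 1 turned direction. The difference of the brightest MALAT1 probe set between Oct4med and Oct4low BCCs was 0.057 without Oct4med replicate 1 (adjusted p = 0.886) and -0.76 without replicate 2 (adjusted p = 0.0134), beside -0.35 with all arrays. Another 96 values of the alternatives lost the threshold, 2 gained it and 1247 kept direction and side. The cause was not tested.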
